A study of Homo sapiens with 3 samples.

Results

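The regions described here are 5406 peaks of CHD8 binding in human neural stem cells that lie away from the starts of annotated genes and carry no peak of TRRAP. They were selected on measured values: a peak of the CHD8 list was a member if it touched no window of 1 kb on either side of the start of a GENCODE 44 gene record of any biotype, and if it shared no base with a peak of the TRRAP list. Only chromosomes 1 to 22 and X were used. The 5406 members make up 23.1% (95% interval 22.6 to 23.7) of the 23393 peaks of the CHD8 list. Over all 23006 CHD8 peaks on these chromosomes, 52.0% shared no base with a TRRAP peak, and among the 9711 distal peaks 55.7% (54.7 to 56.7) did not. At gene starts the share was 49.3% (48.5 to 50.2) of 13295 peaks. These shares use the values that chose the members and are given as a description only.

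The cells were wild-type (WT) neural stem cells (hNSCs) derived from the established embryonic stem cell line H9, grown with EGF and FGF and crosslinked with disuccinimidyl glutarate and formaldehyde. DNA bound by each protein was recovered by immunoprecipitation and sequenced (ChIP-seq), with an antibody against CHD8 (Bethyl), an antibody against TRRAP (Invitrogen) or control IgG, whose library was not analysed here. There was 1 library per antibody and no replicate, so no p-value is given. The 95% intervals (Wilson) cover counting error only and treat peaks as independent, which neighbouring peaks may not be. The number of reads behind each list is unknown.

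CHD8 is an ATP-dependent chromatin remodeler of the CHD family, and loss-of-function variants in its gene are a well-known cause of autism with macrocephaly. It is mostly known from promoters, where it has been linked to beta-catenin and p53 target genes and to histone methyltransferase complexes. TRRAP is the scaffold subunit of histone acetyltransferase complexes of the GNAT and MYST families and is brought to DNA by transcription factors. Sites away from promoters include enhancers, where lineage factors of the SOX, RFX, TEAD and bHLH families bind, and insulators, where the zinc finger protein CTCF holds cohesin loops.

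Words that recur at the summits of these peaks are shown first. Each window below is read from the GRCh38 (hg38) reference 5′ to 3′ on the strand that carries the word, with the word in capitals, so that the letters behind the shares given further on can be read. The windows are from the strongest members with single-copy summits outside exons that hold the word and have no transcript start within 1 kb. For CAGCTG and TEAD they were chosen after their values were seen. The CTCF windows are at chr2:11582-11634 (minus strand, 35267 bp from the start of FAM110C, in a peak with a fold of 14.6) and chr1:201482222-201482274 (plus strand, 13012 bp from PHLDA3, fold 13.3). The CAGCTG windows are at chr10:103281928-103281973 (plus strand, in an intron of INA, fold 21.7) and chr3:89411357-89411402 (plus strand, in an intron of EPHA3, fold 15.9). The RFX windows are at chr7:138161709-138161757 (minus strand, 159446 bp from AKR1D1, fold 17.7) and chr19:51690515-51690563 (plus strand, in an intron of SPACA6, fold 14.2). The SOX windows are at chr3:194286938-194286984 (plus strand, in the lncRNA gene LINC02048, fold 13.3) and chr17:14331318-14331364 (plus strand, in an intron of HS3ST3B1, fold 12.8). The TEAD windows are at chr1:57882342-57882388 (minus strand, in an intron of DAB1, fold 27.4) and chr15:92918080-92918126 (minus strand, in an intron of CHD2, fold 18.1).
CTCF near FAM110C: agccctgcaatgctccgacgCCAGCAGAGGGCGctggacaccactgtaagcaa
CTCF near PHLDA3: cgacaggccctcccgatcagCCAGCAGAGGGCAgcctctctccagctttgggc
CAGCTG in INA: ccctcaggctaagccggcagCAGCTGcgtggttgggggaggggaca
CAGCTG in EPHA3: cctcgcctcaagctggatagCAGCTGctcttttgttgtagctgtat
RFX near AKR1D1: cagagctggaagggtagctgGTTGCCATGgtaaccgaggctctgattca
RFX in SPACA6: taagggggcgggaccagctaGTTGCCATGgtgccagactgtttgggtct
SOX in LINC02048: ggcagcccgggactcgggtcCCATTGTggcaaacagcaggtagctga
SOX in HS3ST3B1: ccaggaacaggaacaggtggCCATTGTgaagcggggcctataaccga
TEAD in DAB1: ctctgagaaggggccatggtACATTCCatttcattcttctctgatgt
TEAD in CHD2: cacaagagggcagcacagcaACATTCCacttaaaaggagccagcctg

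Many of the strongest members lay at starts inside genes, which the rule does not use. A gene record starts at its outermost transcript, and the main promoter can lie far inside it. The next windows run from 100 bp upstream of the start of the canonical transcript, the one chosen to represent the gene, to 29 bp downstream. These 3 rank next to the top. The same window of the strongest member, at NSFL1C, is not shown and holds CAGCTG but no ETS or YY1 word. The peaks next in rank, at ATP5F1A and C17orf75, held none of the 22 words searched within 100 bp of the summit. ETS and YY1 words, or their reverse complements, are in capitals; such words are known from housekeeping promoters. They are at chr1:10474850-10474979 (plus strand, PEX14, start at 10474950), chr12:109052476-109052605 (plus strand, USP30, start at 109052576) and chr17:44014934-44015063 (minus strand, TMEM101, start at 44014963).
PEX14 start: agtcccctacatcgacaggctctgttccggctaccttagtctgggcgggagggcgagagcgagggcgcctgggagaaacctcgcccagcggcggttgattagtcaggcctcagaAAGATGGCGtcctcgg
USP30 start: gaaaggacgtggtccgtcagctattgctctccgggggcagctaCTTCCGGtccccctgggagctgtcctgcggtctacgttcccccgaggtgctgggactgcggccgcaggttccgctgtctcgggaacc
TMEM101 start: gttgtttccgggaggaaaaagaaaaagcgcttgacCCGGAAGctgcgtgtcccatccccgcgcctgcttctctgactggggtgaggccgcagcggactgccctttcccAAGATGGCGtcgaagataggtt

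The label of these regions as distal therefore held for most members but not for the strongest. Of the 5406 members, 1510 (27.9%, 26.8 to 29.1) lay within 1 kb of an annotated transcript start other than a gene record's, and 702 (12.99%, 12.1 to 13.9) lay within 1 kb of the canonical start of a protein-coding gene. Among the 20 strongest members 17 were near a transcript start and 14 near a canonical one, and among the 100 strongest the counts were 63 and 46. The remaining 3896 members had no annotated transcript start within 1 kb and are called start-free below. Of the 4305 distal peaks with TRRAP, 28.9% (27.5 to 30.2) lay near a transcript start, an interval that overlaps that of the members. The classes differed in rank, with 17.96% of members and 59.0% of peaks with TRRAP above the median rank of the list. Above it, 363 of 971 members (37.4%) and 791 of 2541 peaks with TRRAP lay near a transcript start. The shares below it were not computed.

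The strongest member was at chr20:1466401-1467144, with a fold of 44.2 over background and a −log10 q of 135, both as deposited by the authors. Its summit was 61 bp from the canonical start of NSFL1C, a cofactor of the VCP ATPase, and 6932 bp from the start of the gene record. The next were at PEX14, a docking protein of the peroxisome (chr1:10474803-10475528, fold 37.6), at USP30, a deubiquitinase of mitochondria (chr12:109052335-109052925, fold 36.3), and at TMEM101, a membrane protein (chr17:44014367-44015249, fold 35.4). Their summits were 92, 24 and 35 bp from the canonical starts. The GC content of the 4 summit windows was 57.2% or more. Next in rank came ATP5F1A, the alpha subunit of mitochondrial ATP synthase (chr18:46097705-46098794, fold 34.9, 80 bp from the canonical start), and C17orf75 (chr17:32341823-32342542, fold 34.9, 15 bp).

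The following members in rank belonged to genes of translation, respiration and vesicle transport. They were at EIF3F, a subunit of the translation initiation complex (chr11:7986931-7987645, fold 31.8), NDUFAF1, an assembly factor of respiratory complex I (chr15:41402238-41402683, fold 31.4), and SAR1B, a GTPase of COPII vesicles (chr5:134632524-134633121, fold 30.1). Then came RUFY1, an endosomal protein (chr5:179558997-179559991, fold 29.2), and VPS51, a subunit of a tethering complex of the Golgi (chr11:65095902-65096682, fold 28.3). The RUFY1 summit was 168 bp from the start of a non-canonical transcript and 8970 bp from the canonical start. The other 4 lay within 170 bp of a canonical start. The nearest TRRAP peak was between 7477 and 105153 bp away from the 12 strongest members with single-copy summits. The 12th of these, at chr20:41692783-41693881 (fold 27.9), lay in a lncRNA gene, 75140 bp from the start of CHD6, and the nearest transcript start was 8433 bp away.

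Near canonical starts the summit sat at a median of 46 bp downstream of the start (25th to 75th percentile −84.5 to 459.5), and the canonical start was a median of 9138 bp from the start of its gene record. Of the 1510 members near a transcript start, 92.2% (90.7 to 93.4) had a transcript of a protein-coding gene nearest, and 750 peaks spanned the start. A summit window (the summit and 100 bp on either side) was called CpG-rich if it had at least 50% GC and an observed-over-expected CpG ratio of at least 0.6. By this measure 72.9% (69.5 to 76.1) of members at canonical starts were CpG-rich, 39.98% (36.7 to 43.4) of the 808 at another transcript start only, and 15.6% (14.5 to 16.8) of the start-free members. In all, 26.7% (25.5 to 27.9) of members were CpG-rich, beside 1.81% of the 14482889 windows of the same length that tile the genome. Over all ranks, distal peaks with TRRAP stood higher, at 32.1% (30.7 to 33.5). Those with no transcript start within 1 kb stood at 17.1% (15.8 to 18.5), an interval that overlaps that of start-free members. Members above the median rank of the list were 39.2% CpG-rich, and peaks with TRRAP were not split by rank for this measure. Median GC was 66.7%, 59.7% and 52.7% in the 3 groups of members.

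**Figure D1:**
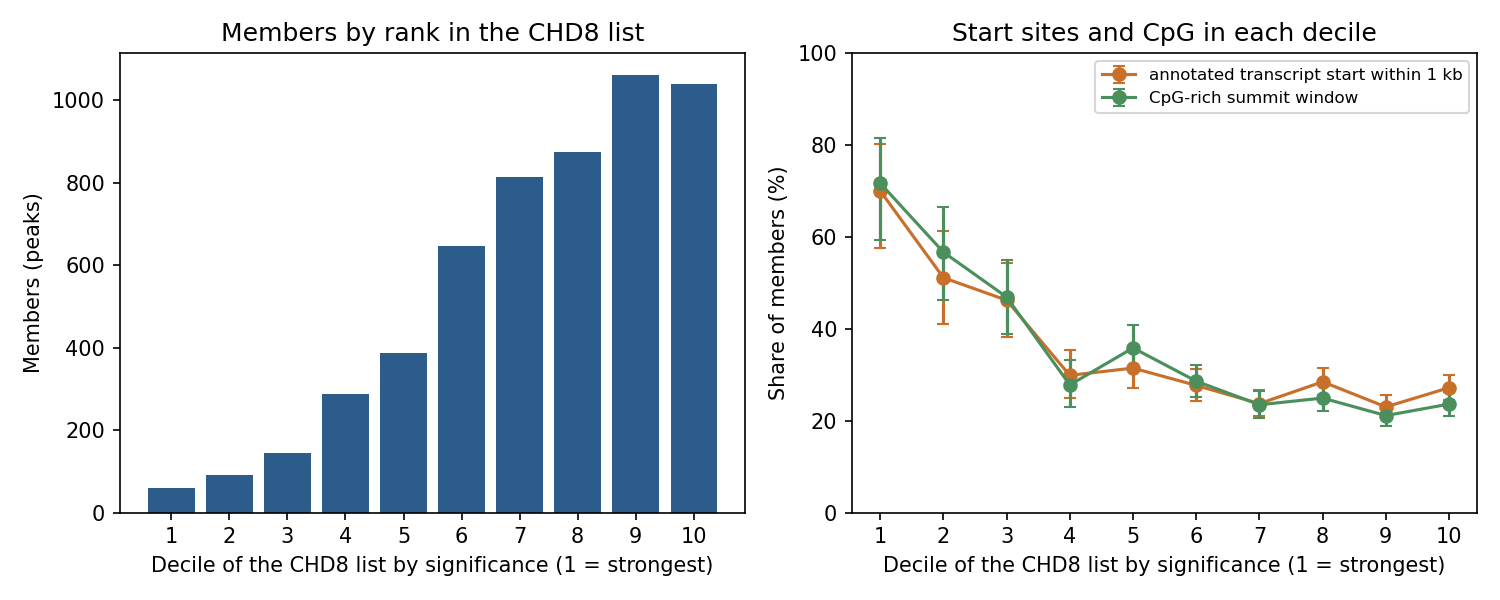
Left, members (bars, number of peaks) by decile of the whole CHD8 list, ranked by significance, where decile 1 is the strongest. Right, the share of members in each decile with an annotated transcript start within 1 kb or a CpG-rich summit window (%, bars are Wilson 95% intervals): both fall from 70.0% or more in decile 1 to less than 30% in decile 10, while the number of members rises from 60 to 1038.

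Most members ranked low in their list. Their median fold was 7.54 (25th to 75th percentile 6.66 to 8.87), their median −log10 q 9.04 and their median width 227 bp, beside 10.2, 16.1 and 373 bp in distal peaks with TRRAP. The strongest decile of the CHD8 list held 60 members, or 13.5% (10.6 to 17.0) of its distal peaks, and the weakest held 1038, or 82.9% (80.7 to 84.9). In the strongest decile 70.0% (57.5 to 80.1) of members were near a transcript start, in the third decile 46.2% (38.3 to 54.3) and in the weakest 27.2% (24.5 to 30.0). The deposited folds step by 0.442 and took only 58 distinct values in members, so medians are coarse. Strength moves with the rule's use of TRRAP, and whether TRRAP signal below its list's threshold lies at members was not tested.

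**Figure D2:**
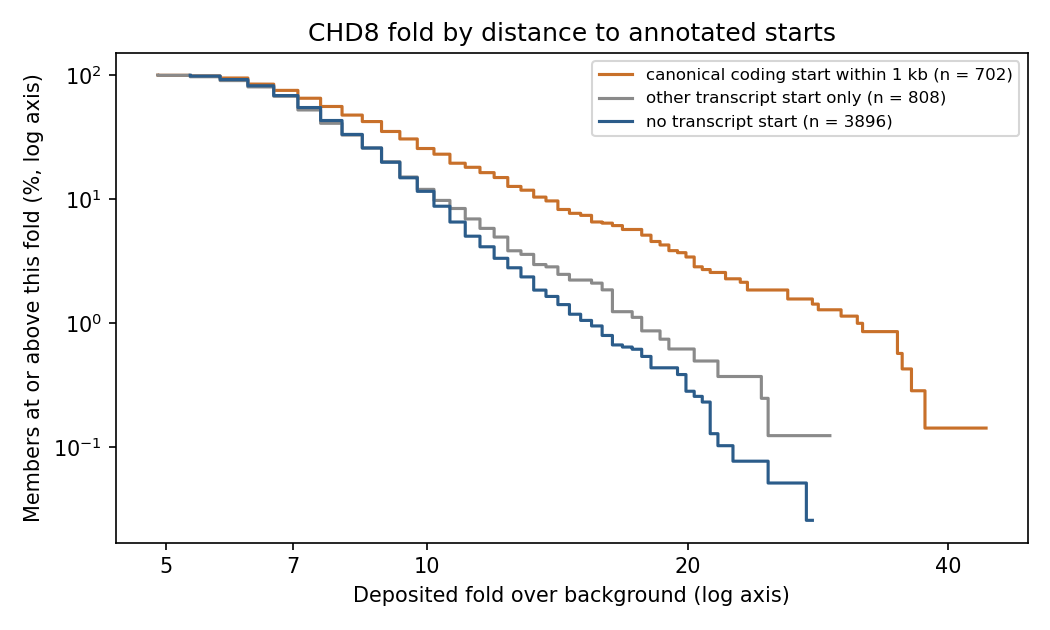
Share of members (%, log axis) at or above each deposited fold over background (log axis), for 702 members near a canonical coding start, 808 near another transcript start only and 3896 near none. The medians are 7.98, 7.54 and 7.54, and the curves reach 44.2, 29.2 and 27.9.

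Peaks close to the thresholds of the rule were as follows. The member nearest to a gene start window was at chr19:45770253-45770569, in DMPK, with its edge 1001 bp from the start of SIX5 (fold 13.3). A peak in UBE2H at chr7:129951766-129951960 (fold 6.66) was at 1000 bp and was not a member. The member nearest to a TRRAP peak was at chr18:37394025-37394284 in CELF4 (fold 6.22), with the nearest bases 1 bp apart. A peak in KLF12 at chr13:74133201-74133359 (fold 7.10) shared 1 bp with a TRRAP peak and was not a member.

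Of the members, 807 (14.9%, 14.0 to 15.9) had a TRRAP peak within 1 kb, and for 673 of these that TRRAP peak shared a base with another CHD8 peak. The share of all TRRAP peaks that do so was not computed, so the count is not read as particular to members. Distal TRRAP peaks without CHD8 numbered 1245, beside 14246 TRRAP peaks on these chromosomes. A TRRAP peak lay within 10 kb of 33.2% (31.98 to 34.5) of members and farther than 100 kb from 27.3% (26.2 to 28.5), with a median distance of 31924.5 bp. Members near a transcript start were closer to TRRAP: 43.2% (40.8 to 45.8) of them and 29.3% (27.9 to 30.8) of start-free members had a TRRAP peak within 10 kb. For CHD8 peaks at gene starts without TRRAP the share was 34.3% (33.2 to 35.5). The 3 members in MEIS1, a homeobox factor of regional identity, lay 998426 to 1071186 bp from TRRAP.

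Introns of protein-coding genes held the summits of 47.4% (46.1 to 48.7) of members, exons 12.7% (11.9 to 13.7) and sequence outside such genes 39.8% (38.5 to 41.2). In distal peaks with TRRAP these shares were 41.6% (40.1 to 43.1), 13.4% (12.4 to 14.5) and 45.02% (43.5 to 46.5). Exonic summits were mostly those near starts: 36.0% of members near a transcript start and 3.72% of start-free members lay in exons. Summits were called multi-copy if the 32-base words of the summit and the 50 bp on either side occur more than once in the genome, by their median. Multi-copy summits made up 7.94% (7.24 to 8.69) of members and 24.3% (22.99 to 25.6) of distal peaks with TRRAP, and among start-free peaks that ranked below the median of the list the shares were 8.67% (7.75 to 9.68) and 28.1% (25.8 to 30.6).

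Among the strongest start-free members, several were intronic. A peak at chr1:57881687-57882529 lay in DAB1, the adaptor of reelin signalling in migrating neurons, with a fold of 27.4. Others were in BCAS4 (chr20:50818112-50818769, fold 24.8) and in INA, which encodes the neuronal intermediate filament alpha-internexin (chr10:103281831-103282140, fold 21.7, 88444 bp from the nearest TRRAP peak). NIPBL, the loader of cohesin, held a peak in an intron 2171 bp from its start (chr5:36878811-36879066, fold 19.9), and GTF2A1, a subunit of the general factor TFIIA, held one 1869 bp from its start (chr14:81219262-81219722, fold 19.5). In the remodeler gene CHD2 a peak with a fold of 18.1 lay 17704 bp from the canonical start. These genes, apart from NIPBL, were chosen after their values were seen.

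The word CAGCTG, an E-box bound by bHLH factors, was the most frequent of the words whose share rose at the summit. An exact match on either strand within 100 bp of the summit counted as holding a word, and a match is a description of the letters and no evidence of a bound factor. CAGCTG was present in 1068 members (19.8%, 18.7 to 20.8), in 8.60% (8.09 to 9.14) of windows centred 2 kb to either side and in 6.80% of genome windows. Start-free members held it in 21.6% (20.3 to 22.9) of cases and those near a transcript start in 15.1% (13.4 to 17.0). In start-free distal peaks with TRRAP the share was 17.4% (16.1 to 18.8), and at gene starts without TRRAP it was 13.2% (12.4 to 14.1). Multi-copy summits made up 8.93% of start-free members and 32.4% of start-free peaks with TRRAP. Members and peaks with TRRAP were not compared on single-copy summits alone, for this word or those below, so a part of repeats in the differences was not tested. Among start-free peaks above the median rank of the list, the shares with the word were 22.04% (18.9 to 25.5) in members and 16.7% (15.1 to 18.6) in peaks with TRRAP. Below it they were 21.5% (20.1 to 22.9) and 18.3% (16.3 to 20.5), and those intervals overlapped. Overlap of intervals does not show that shares are equal.

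GC content moved with this result, since the flanks of all members had a median GC of 45.8% and start-free members 52.7%. Within bands of GC, start-free members and their flanks compared as follows. Below 45% GC the shares were 15.1% (12.7 to 18.0) and 5.13% (4.48 to 5.88), and at 45 to 55% they were 23.2% (21.2 to 25.4) and 9.71% (8.61 to 10.9). At 55 to 65% the shares were 25.1% (22.6 to 27.8) and 15.8% (13.7 to 18.1). At 65% GC or more the shares were 18.0% (15.0 to 21.4) and 15.9% (12.4 to 20.1), and their intervals overlapped. The density of CAGCTG in start-free members was 1.44 hits per kb in the 50 bp downstream of the summit and 0.544 at 250 to 300 bp. Peaks with and without the word had the same median fold of 7.54. The related word CAGATG, the E-box of NEUROD and NEUROG factors, was in 15.97% (14.8 to 17.1) of start-free members, 13.9% (13.2 to 14.7) of their flanks and 12.1% (10.98 to 13.3) of start-free peaks with TRRAP, and the interval of the members overlapped neither of the others. Members near a transcript start went the other way, with 8.87% (7.54 to 10.4) against 12.8% (11.7 to 14.1) of their flanks.

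**Figure D3:**
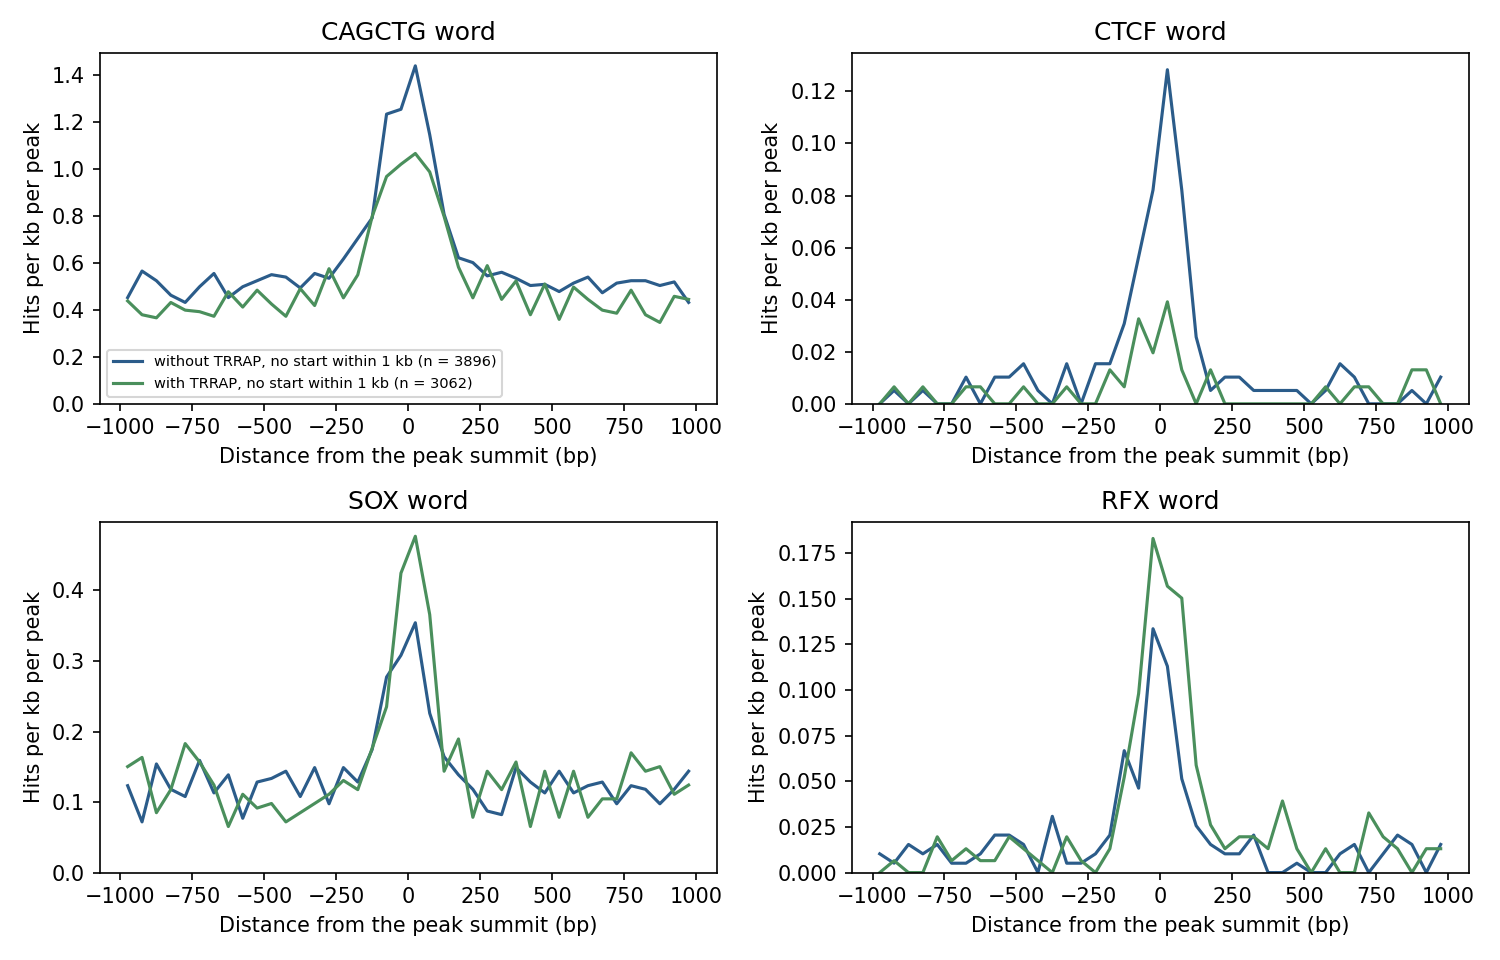
Hits per kb per peak of 4 consensus words in bins of 50 bp by distance from the summit (bp), for 3896 start-free members (blue) and 3062 distal peaks with TRRAP and no transcript start within 1 kb (green). Each word peaks at the summit. CAGCTG and CTCF are higher in members (1.44 and 0.128 against 1.06 and 0.0392 in the 50 bp downstream of the summit). Multi-copy summits are included and are more frequent in the peaks with TRRAP. RFX and SOX are drawn higher in peaks with TRRAP. Over all ranks the intervals of their shares do not overlap for RFX and do for SOX. Above and below the median rank they overlap for both words, but each side holds fewer peaks and has wider intervals.

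The 13-base CTCF consensus was rare in the flanks. It was present in 79 members (1.46%, 1.17 to 1.82) and in 3 of 10812 flanking windows (0.0277%, 0.00944 to 0.0816), beside 0.0471% of genome windows. Start-free members held it in 1.69% (1.33 to 2.15) and start-free distal peaks with TRRAP in 0.425% (0.248 to 0.725), and these intervals did not overlap. The gap was also seen on either side of the median rank, a split that limits the difference in strength only coarsely. Below the median rank the shares were 1.58% (1.21 to 2.07) and 0.305% (0.119 to 0.781), and above it 2.30% (1.38 to 3.83) and 0.514% (0.271 to 0.975). With 1 mismatch allowed the shares were 5.90% (5.30 to 6.56) of members, 2.53% (2.103 to 3.05) of all distal peaks with TRRAP and 0.703% of flanks. Distal TRRAP peaks without CHD8 held the exact word in 1.69% (1.11 to 2.56).

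Of the 79 members with the CTCF word, 40 lay outside protein-coding genes and 26 in introns, 18 had a TRRAP peak within 10 kb and their median fold was 7.98. The strongest was at chr19:57830120-57830559, 8 bp from the canonical start of the zinc finger gene ZNF587B (fold 19.9), with a 2-copy summit. The next was at chr1:205529004-205529406 in CDK18, a cyclin-dependent kinase gene, 2 bp from a non-canonical transcript start (fold 15.9). A pair with folds of 14.6 followed, the peak near FAM110C at chr2:11303-11877 and a peak in an exon of the receptor gene GPR61 at chr1:109546396-109546784. Then came the peak near PHLDA3, at chr1:201482138-201482463.

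Over all members, RFX, SOX and TEAD words were also more frequent at the summit than 2 kb away. Near transcript starts this was not so for TEAD, with 2.05% (1.45 to 2.90) at summits and 2.38% (1.90 to 2.99) in flanks, and for SOX the intervals overlapped, at 2.52% (1.84 to 3.44) and 1.66% (1.26 to 2.18). Within the bands of GC used above, the intervals of start-free members and flanks overlapped for all 3 words at 65% GC or more. In each band below 65% the shares were higher in members and the intervals did not overlap. The RFX half-site GTTGCCATG, of a family that drives cilia genes, was in 1.33% (1.06 to 1.67) of members, 0.203% (0.134 to 0.308) of flanks and 0.156% of genome windows. Among start-free peaks it was in 1.59% (1.24 to 2.03) of members and 2.65% (2.13 to 3.28) of peaks with TRRAP. The SOX word CCATTGT, of the family of SOX2, was in 4.72% (4.18 to 5.32) of members, 2.22% (1.96 to 2.51) of flanks and 2.99% of genome windows, and in 5.57% (4.89 to 6.33) and 6.86% (6.02 to 7.81) of start-free members and peaks with TRRAP. The TEAD word ACATTCC, of the factors partnered by YAP, was in 5.20% (4.64 to 5.82) of members, 2.71% (2.42 to 3.03) of flanks and 3.25% of genome windows. Its shares were 6.42% (5.69 to 7.23) and 8.33% (7.40 to 9.36) in start-free members and peaks with TRRAP. The intervals of members and peaks with TRRAP did not overlap for RFX and TEAD but did for SOX. On either side of the median rank they overlapped for all 3 words, though each side holds fewer peaks and the shares were lower in members on both sides. Above the median rank RFX was in 2.30% (1.38 to 3.83) of members and 2.74% (2.08 to 3.62) of peaks with TRRAP, SOX in 4.93% (3.48 to 6.96) and 7.26% (6.13 to 8.57), and TEAD in 7.07% (5.29 to 9.39) and 8.57% (7.35 to 9.98). Below it RFX was in 1.46% (1.10 to 1.93) of members and 2.52% (1.80 to 3.51) of peaks with TRRAP, SOX in 5.69% (4.95 to 6.53) and 6.33% (5.13 to 7.78), and TEAD in 6.30% (5.52 to 7.18) and 8.00% (6.65 to 9.60).

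**Figure D4:**
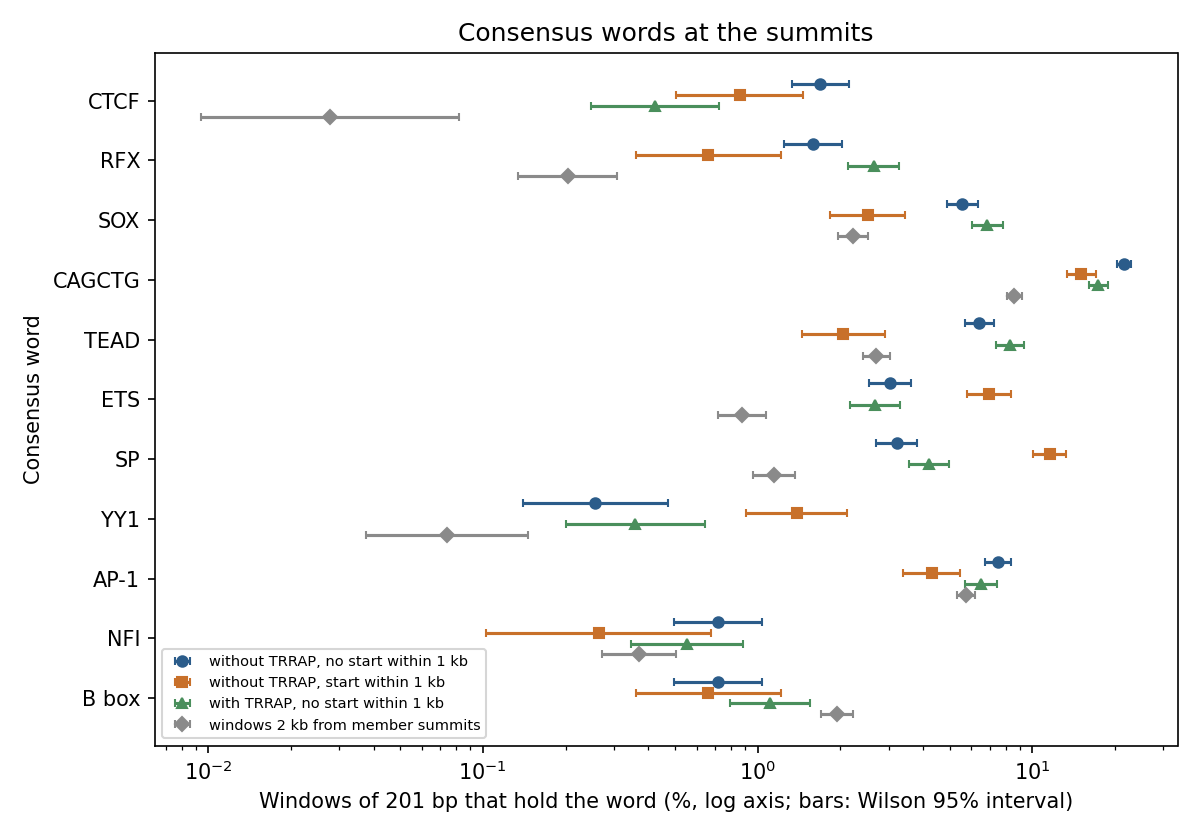
Share of windows (100 bp on either side of a centre) that hold each consensus word (%, log axis, bars are Wilson 95% intervals), for members with no transcript start within 1 kb, members with one, distal peaks with TRRAP and no start, and windows 2 kb from member summits. The CTCF word is in 1.69%, 0.861%, 0.425% and 0.0277% of them, in that order, and ETS, SP and YY1 words are most frequent near transcript starts.

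Words known from promoters were more frequent in members near a transcript start. Their shares were not adjusted for GC, and median GC was 63.2% near a transcript start, 52.7% in start-free members and 45.8% in flanks. The ETS word CCGGAAG was in 6.95% (5.78 to 8.35) of members near a transcript start, 3.03% (2.54 to 3.61) of start-free members and 0.879% (0.719 to 1.07) of flanks, beside 13.2% (12.4 to 14.1) at gene starts without TRRAP and 0.464% of genome windows. The SP word GGGGCGGGG was in 11.6% (10.1 to 13.3), 3.21% (2.70 to 3.81) and 1.15% (0.963 to 1.37), and in 0.286% of genome windows. The YY1 word AAGATGGCG was in 1.39% (0.911 to 2.12), 0.257% (0.139 to 0.472) and 0.0740% (0.0375 to 0.146), and in 0.0661% of genome windows. The E2F word TTTCCCGC was in 41 members (0.758%, 0.560 to 1.03) and 0.213% of flanks, most strongly at RPL36, a ribosomal protein gene (chr19:5690056-5690831, fold 18.1). The strongest members with the ETS word were those at USP30, TMEM101 and SAR1B. Of the 5406 members, 2377 (43.97%, 42.7 to 45.3) held none of the 22 words searched.

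Among words of 8 bases, C-rich ones differed most between summits and flanks. CCCGCCCC led over all members, in 8.73% against 1.78% of flanks, and CCCTCCCC led in start-free members, in 8.96% against 3.16%. These differences were not adjusted for GC.

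Members stood in groups at a few places, described here after their values were seen. Another CHD8 peak lay within 1 kb of 1540 members (28.5%, 27.3 to 29.7) and of 37.2% (35.8 to 38.7) of distal peaks with TRRAP. Each peak is a separate member here and in the counts per gene and per Mb below. Whether neighbouring peaks form 1 site was not tested. The bin of 100 kb with most members held 13 of them and belongs to the locus of DANT1 and DANT2, lncRNA genes at the macrosatellite DXZ4 on chromosome X (chrX:115727559-115888542). In the whole locus 18 of 23 CHD8 peaks were members and 5 carried TRRAP. Over all CHD8 peaks on chromosomes 1 to 22 and X, 52.0% shared no base with a TRRAP peak. Multi-copy summits were found in 429 members and in 1044 distal peaks with TRRAP. All 18 summits were multi-copy with a median of 18 copies, folds ran from 5.77 to 22.6, and none of the windows held the CTCF word, even with 1 mismatch. Reads of such repeats cannot be placed at a given copy, so the count is not read as 18 separate sites. Single-copy groups in a bin of 100 kb were found at GSE1 (9 members), at KDM6B and CHD3, a histone demethylase and a remodeler (7 members at chr17:7838291-7889522), and at NR2F2, an orphan nuclear receptor of the developing brain (6 members at chr15:96331793-96360689). Such a bin at MACF1, a cytoskeletal linker, held 6 members.

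The 5 protein-coding genes with most members were GSE1, AUTS2, NPAS3, PTPRN2 and FRMD4A, all between 506680 and 1195211 bp long. GSE1, a subunit of a histone deacetylase complex, held 20 members with folds from 5.33 to 10.6 (median 7.10), beside 12 distal peaks with TRRAP, and its members lay 52 to 39973 bp from TRRAP. AUTS2, a neurodevelopmental regulator linked to Polycomb, held 12 members with folds from 5.77 to 9.31, NPAS3, a bHLH-PAS factor of neural progenitors, held 11 with folds from 6.22 to 14.2, and PTPRN2 and FRMD4A held 11 each. PTPRN2 had 6 distal peaks with TRRAP, AUTS2 3, and NPAS3 and FRMD4A had 1 each. In all, 2401 of 19970 protein-coding genes (12.02%, 11.6 to 12.5) held a member, and 43 held 5 or more.

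Genes of neural stem cells and of brain patterning are described by the share that holds a member, beside 12.02% of all protein-coding genes (median length 27.5 kb). The intervals treat genes as independent, which neighbours are not. Of 20 genes of neural stem cell identity 7 (35.0%, 18.1 to 56.7) held one, at 13.5 members per Mb of gene record beside 2.54 over all protein-coding genes. They included MSI2, an RNA-binding protein of stem cells (8 members, folds 5.33 to 7.98), CDH2, N-cadherin (3 members), and NES, the intermediate filament nestin (2 members, folds 8.43 and 5.77, with summits 1517 and 2438 bp from the start). Of 26 regional patterning factors 8 (30.8%, 16.5 to 50.0) did, at 11.2 per Mb. Distal peaks with TRRAP stood at 9.75 per Mb on the neural stem cell list, 1.87 on the patterning list and 1.81 over all protein-coding genes. Among the patterning factors, ZIC1 held 4 members (folds 5.77 to 8.87), 2 of them start-free, and MEIS1 3 (6.22 to 15.1), 1 of them start-free. Start-free members alone stood at 10.5 per Mb on the neural stem cell list, 6.07 on the patterning list and 1.42 over all protein-coding genes. Density fell with gene length over all genes, from 6.64 per Mb in the shortest 3994 genes (median 3.64 kb) to 2.05 in the longest 3994 (162 kb), and the median lengths of these lists were 16.1 and 9.59 kb. The share of genes with a member rose with length instead, from 2.13% (1.72 to 2.62) to 29.04% (27.7 to 30.5) in the same groups.

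Signalling genes come next. Of 32 WNT and beta-catenin genes 13 (40.6%, 25.5 to 57.7; 9.40 per Mb, median length 55.5 kb) held a member, led by the effector TCF7L2 (3 members, folds 6.22 to 8.87), the ligand WNT5A (2) and the scaffold AXIN2 (2). Of 20 Notch genes 8 (40%, 21.9 to 61.3; 6.84 per Mb) did, led by the coactivators MAML2 (3) and MAML3 (2) and the receptor NOTCH2 (2), and distal peaks with TRRAP were denser there, at 12.5 per Mb. Of 39 autism-associated nuclear regulators 22 (56.4%, 41.0 to 70.7; 6.57 per Mb) did, and their median length was 173 kb, near that of the longest 3994 genes, of which 29.04% held a member. The list was led by AUTS2 (12), the corepressor RERE (5) and CHD3 (4, folds 6.22 to 9.75). Of these members 9, 4 and 0 were start-free, so all 4 in CHD3 lay near a transcript start. Start-free members stood at 4.92 per Mb on the WNT list, 5.70 on the Notch list and 3.57 on the autism list, beside 1.42 over all protein-coding genes. TCF7L2 is on the patterning, WNT and autism lists.

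The remaining lists cover neuronal genes, cohesin and other cell types. Of 20 proneural and neuronal genes 2 (10.0%, 2.79 to 30.1; 0.462 per Mb) held a member: the tubulin TUBB3 and the microtubule protein MAP2. Of 30 synaptic and adhesion genes 18 (60.0%, 42.3 to 75.4) did, but at 1.39 per Mb, and their median length was 577 kb. LRRC4C and DLG2, which encode synaptic adhesion and scaffold proteins, held 3 members each. Of 15 CTCF and cohesin genes 3 did (STAG2, NIPBL and PDS5A; 2.11 per Mb). Of 12 pluripotency genes LIN28B alone held members, 6 of them with folds from 6.66 to 9.31, and one of the 2 strongest was 118 bp from its canonical start. Of 20 genes of mesoderm, endoderm, neural crest and glia 3 (15%, 5.24 to 36.0) did, at 7.89 members per Mb with a median length of 15.3 kb: PDGFRB (2), TWIST1 (2) and PDGFRA (1). The density of members was thus above that of all protein-coding genes also on this list of genes from other lineages.

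**Figure D5:**
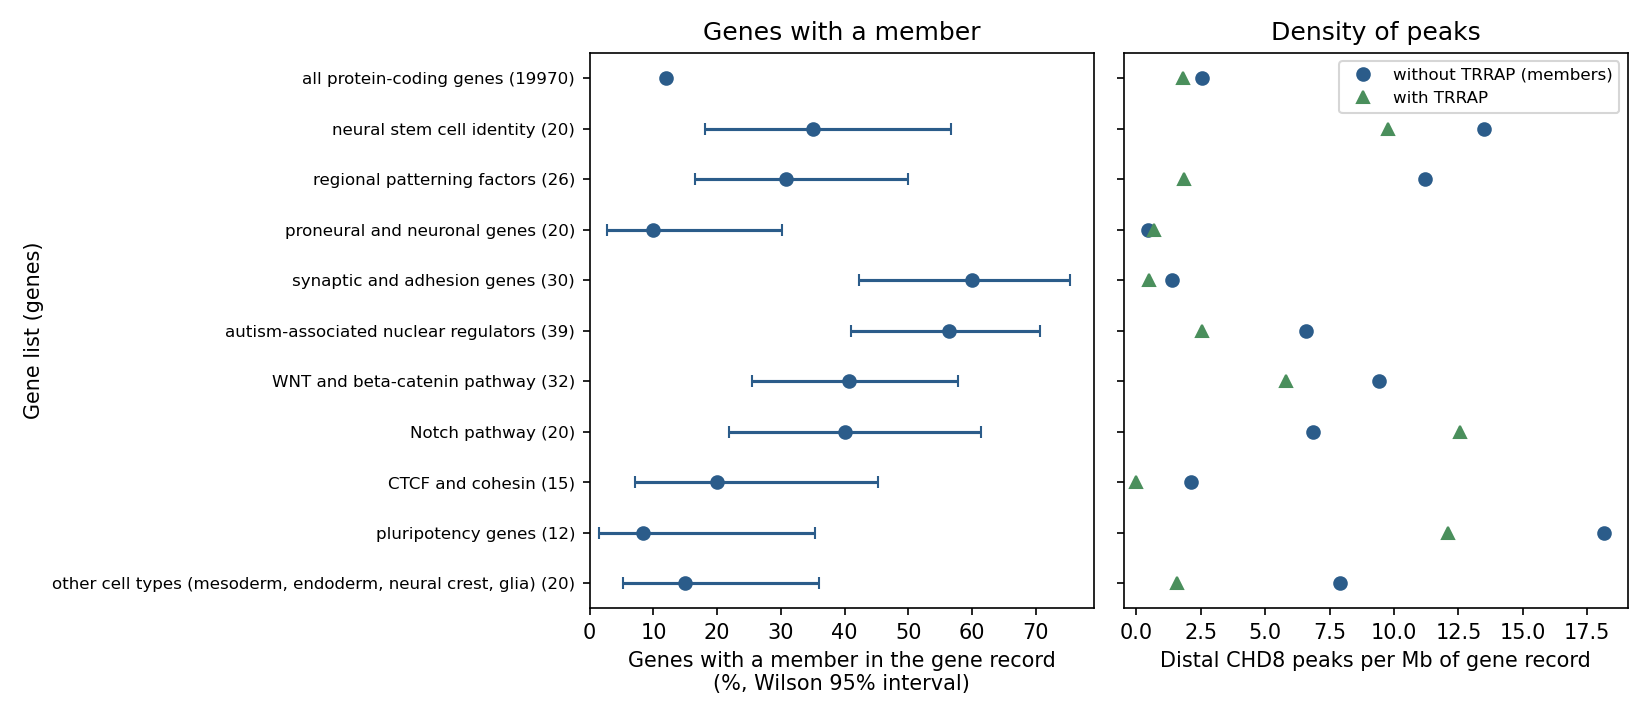
Left, the share of genes on each list that hold a member in the gene record (%, bars are Wilson 95% intervals), with the number of genes in brackets. Right, members (circles) and distal peaks with TRRAP (triangles) per Mb of gene record. Members near a transcript start inside a gene are included. Neural stem cell (13.5) and patterning genes (11.2 per Mb) lie above all protein-coding genes (2.54), synaptic genes below (1.39), and the highest value, 18.2, rests on LIN28B alone.

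As a check of the labelled cells, CHD8 peaks were present within 1 kb of the canonical starts of 8 of 8 neural stem cell markers, 2 of 6 pluripotency markers, 1 of 5 neuronal, 0 of 5 glial and 1 of 6 mesoderm, endoderm and crest markers. TRRAP peaks were at 6, 2, 1, 0 and 0 of them. Over all 19962 protein-coding genes with a canonical start, 56.1% (55.4 to 56.8) had a CHD8 peak there and 35.1% (34.4 to 35.7) a TRRAP peak, so counts on lists this short say little about cell identity.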

How the data were processed

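Peak lists of 1 CHD8 and 1 TRRAP library were used. Per the submitters' processing notes, reads were processed with HISAT2 and MACS2 2.1.1.20160309 on GRCh38. The file names give a false discovery rate of 0.0001 for CHD8 and 0.001 for TRRAP. In the authors' deposited lists each peak has a score, a fold (a linear ratio of signal over background), a −log10 p-value, a −log10 q-value and a summit. The control used by the caller and any filter on duplicates or repeats are not given in the sources used here. All sequence names of both lists were found in the reference, with 0 peaks past a sequence end.

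Peaks were set beside GENCODE 44 with Python 3.11.15, numpy 2.4.6, pandas 2.3.3, scipy 1.17.1, pysam 0.24.0, numba 0.67.0 and samtools 1.23.1, and plotted with matplotlib 3.10.9. Coordinates count from 1. An overlap was 1 shared base. The word search recovered all 4400 words planted in simulated sequence. Except where the text says that a choice followed the values, genes were named by rank: the 12 strongest members with single-copy summits; the 3 strongest by location; the 5 strongest with the CTCF word and the 3 strongest with other words; the 5 genes with most members and the 3 from each list; the 5 strongest near another transcript start; and the 3 members nearest each threshold, of which 1 each is given. Gene lists were written from general knowledge, and 1 of 13 pluripotency symbols was not matched. Members and lists were chosen with earlier results of these data known. Some genes that these rules name are not reported here.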

Additional observations from a re-analysis of the deposited data

How the results depend on the processing

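With 1 library per antibody and no replicate numbers, no paired analysis was possible because each antibody has a single sample. Of 68 alternatives computed, 43 stayed within the interval of the reported value (for the number of members, within 1.5 times; for the median fold, within its order-statistic interval) and 25 moved. Leaving out peaks near any transcript start gave 43.5% in introns, 0% near a transcript start by construction, 29.3% with TRRAP within 10 kb and 15.6% CpG-rich. Windows of 5 kb gave 21.6% near a transcript start, 24.9% with TRRAP within 10 kb and 20.9% CpG-rich. Windows at protein-coding genes only gave 44.4% in introns, 39.4% near a transcript start and 32% CpG-rich. Counting TRRAP within 1 kb as an overlap gave 24.7% near a transcript start, 21.5% with TRRAP within 10 kb and 24.4% CpG-rich. Requiring 50% of the shorter peak to be shared gave 35.1% with TRRAP within 10 kb. Peaks above the median rank left 971 members, with 43.5% in introns, 37.4% near a transcript start, 30.5% with TRRAP within 10 kb, a median fold of 10.6 and 39.2% CpG-rich. Single-copy summits gave 48.9% in introns. The CTCF word was in 0.777% within 50 bp of the summit, 2.00% within 250 bp and 5.90% with 1 mismatch. CpG-rich windows of 500 bp each side made up 22.8%. The cause of these shifts was not tested, beyond the construction of each setting. The share of start-free members with CAGCTG, whose alternatives were added after seeing the data, stayed between 21.3% and 22.7%. The share of summits in masked repeats, listed among the planned results, was not run, since the reference used carries no repeat masking. Read depth is unknown, and exact words understate sites.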

Other observations

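Transfer RNA genes, transcribed by RNA polymerase III from promoters inside the gene, were overlapped by 29 members, which touched RefSeq tRNA genes among the 443 on these chromosomes. Of the 29, 26 were among the members called start-free, as tRNA genes were not in the set of starts. In all, 62 start-free members lay within 1 kb of a tRNA gene. The median fold of the 29 was 7.98. The strongest was at TRG-TCC3-1, a glycine tRNA gene (chr17:8220923-8222015, fold 17.7), followed by TRD-GTC2-8, an aspartate tRNA gene (chr12:96035432-96036099, fold 11.96), and TRP-AGG2-4, a proline tRNA gene (chr11:76235078-76235803, fold 10.6). The B box word GTTCGANNC of such promoters was in 9 of the 29 summit windows, and the A box word TGGCNNAGT in 1. Over all members the B box word was in 0.703% (0.513 to 0.963), below the 1.95% (1.71 to 2.23) of the windows 2 kb away. Among distal peaks with TRRAP, 29 also overlapped a tRNA gene. The shares were 0.536% (0.374 to 0.769) of members and 0.674% (0.469 to 0.966) of peaks with TRRAP, and these intervals overlapped.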
